A study of Rattus norvegicus with 6 samples.

Results

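Expression of 6 rat ion pump genes was examined at the epicenter of a chronic spinal cord contusion: the sodium-potassium pump beta subunit genes Atp1b1 and Atp1b2, the endoplasmic reticulum calcium pump gene Atp2a2, and the plasma membrane calcium pump genes Atp2b1, Atp2b2 and Atp2b3. The probe sets examined (groups of short oligonucleotides that report on 1 transcript) are all those for which the array's annotation gives exactly one of these symbols. That rule found 20 probe sets for 6 genes, of 8740 probe sets that are not controls and 4736 singly named genes. The matching of symbols used no measured value, but the 6 genes were chosen with earlier results of these data known. Contused arrays held total RNA from rat cord at the injury site, about thoracic segment 8, from 3 samples taken 35 days after contusion, a blunt blow to the cord. Uninjured arrays held RNA from the same level of the cord of uninjured animals, also 3 samples. Labels name no strain, sex, age, severity of the blow, sham operation or day for the uninjured samples, so surgery and elapsed time cannot be told apart from the contusion itself. Nor do they say that each array had its own animal, so p-values measure only the spread of these samples, some of which may be technical.

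The sodium-potassium pump exports sodium and imports potassium at the expense of ATP, and so maintains the ion gradients on which neuronal firing and astrocytic uptake of transmitter depend. Its alpha subunit does the transport, and the beta subunit, a glycoprotein, is needed to fold the pump and bring it to the cell surface. Calcium pumps are single-chain relatives of the alpha subunit: the SERCA type, encoded by Atp2a2 among others, loads calcium into the endoplasmic reticulum, and the PMCA type, encoded by the Atp2b genes, expels calcium across the plasma membrane under control of calmodulin. In the central nervous system Atp1b2 is known as an adhesion molecule of astrocytes, Atp2b1 and Atp2a2 as broadly expressed genes, and Atp2b2 and Atp2b3 as genes of excitable cells.

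Median signals ran from 122 to 127 over the 6 arrays, and 73.1% to 76% of probe sets lay above a signal of 61.6, the floor to which lower values were raised. Pairs of arrays correlated at 0.969 to 0.983 within a group and at 0.936 to 0.951 across groups, over log2 signals. Among the marker lists, neuron markers summed to signals of 7045 to 7525 on contused arrays and 13993 to 16553 on uninjured arrays, astrocyte markers to 11097 to 11936 on contused and 10968 to 11772 on uninjured arrays, and oligodendrocyte markers to 11514 to 12860 on contused and 13274 to 14515 on uninjured arrays. Both groups carried these markers of neurons, astrocytes and oligodendrocytes. Syt1 was the one neuron marker at the floor on every array.

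In contused cord, Atp2b2, Atp2b3 and Atp1b1 fell, by their brightest probe sets 2.31-fold, 2.18-fold and 1.4-fold. All 3 probe sets of Atp1b2 overlapped between the groups. Probe set AA799276_at of Atp2a2 also fell, 1.83-fold, though the brightest probe set of that gene did not pass. The fall of Atp1b1 was not firm, and M96626_at of Atp2b3 pointed higher without passing, as given below. Of the 20 probe sets, 17 were tested and 3 were too dim. At an adjusted p under 0.05 in limma, 9 were lower and 0 higher, where 9.59% of all 6705 tested probe sets were lower and 7.79% higher. Before adjustment, 10 were lower and 0 higher at a p of 0.05, against 16.3% and 14.0% of all tested. One of the 9, of Atp2b2, passed the filter on dim values through its uninjured arrays alone. Among probe sets above the floor on all 6 arrays, 8 of 16 pump probe sets were lower with a median log2 change of -0.43, against 9.71% and a median of -0.017 over all 5840 such probe sets. By gene, each taken at its brightest probe set, 3 of 6 were lower and 0 higher, against 10% and 7.13% of 3955 genes. All contused arrays lay below all uninjured arrays for 10 of the 17 tested pump probe sets and above them for 1, against 18.2% and 16.6% of all tested. Because the genes were chosen with earlier results of these data known, these shares describe the list and do not test it. In bulk tissue, fewer cells of a type and less RNA per cell cannot be told apart.

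**Figure D1:**
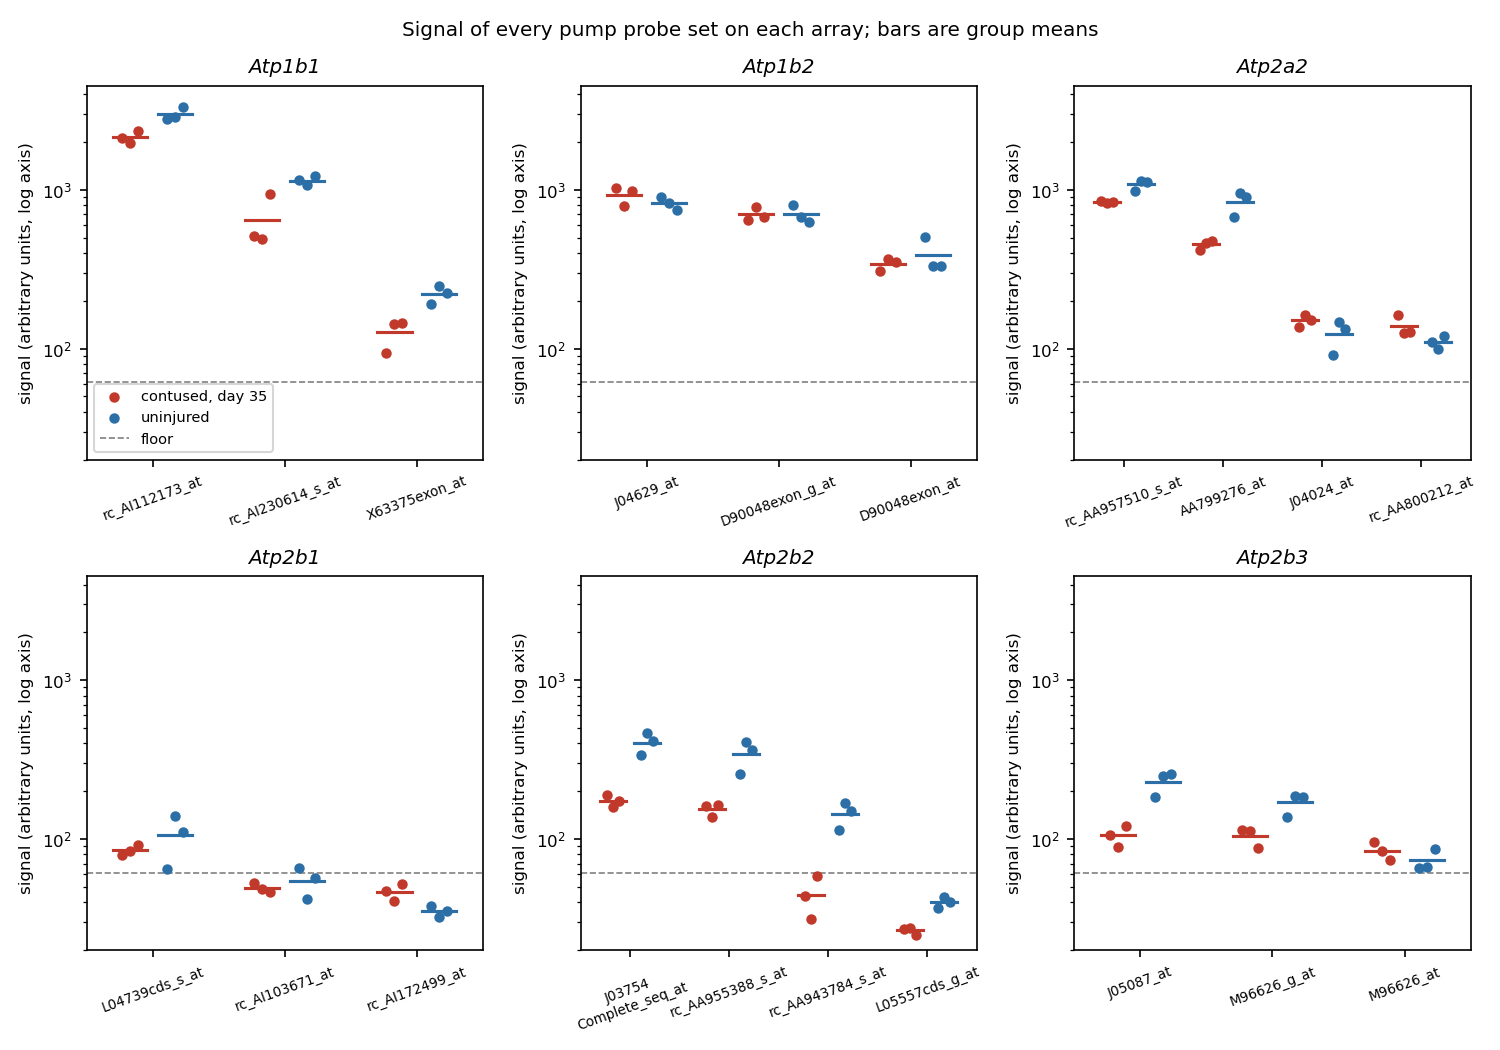
Signal of all 20 probe sets on each array (arbitrary units, log axis), 1 panel per gene, with contused arrays in red left of uninjured arrays in blue. Short bars are group means over 3 arrays and the dashed line is the floor at 61.6. The groups are apart for every Atp1b1 probe set and for all 4 of Atp2b2, and overlap for all 3 of Atp1b2.

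Atp1b1 encodes the beta-1 subunit, which is widely expressed and prominent in neurons. Its brightest probe set, rc_AI112173_at, read 2103, 1977 and 2336 on the contused arrays and 2779, 2888 and 3312 on the uninjured arrays (mean signal 2139 ± 182 against 2993 ± 282, SD, n = 3 each). Every contused array lay below every uninjured one, and the log2 change was -0.48 (SE 0.12, limma adjusted p = 0.0153).

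The other Atp1b1 probe sets fell further. Probe set rc_AI230614_s_at read 511, 488 and 934 after contusion and 1145, 1066 and 1220 in uninjured cord, a log2 change of -0.89 (SE 0.22, adjusted p = 0.0184). Contused array 3 stood nearer to the uninjured arrays than to the other contused ones here, and the SD was 251 for the contused arrays against 76.8 for the uninjured ones. The suffix _s_at marks probes that can match more than 1 transcript. X63375exon_at read 93.6, 142 and 145 on contused and 192, 249 and 223 on uninjured arrays, a log2 change of -0.82 (SE 0.19, adjusted p = 0.0151). Here contused array 1 was the lowest. The 3 probe sets of Atp1b1 thus fell together, but their calls were not firm: without uninjured array 3 none passed (adjusted p = 0.0978, 0.0665 and 0.0521 in the order given), nor did any with all dim probe sets kept in the fit (0.0622, 0.149 and 0.104). In addition rc_AI230614_s_at lost its call without contused array 1 (0.0689) or 2 (0.0651), and X63375exon_at without uninjured array 2 (0.0593).

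Atp1b2 encodes the beta-2 subunit, found mainly in glia. Probe set J04629_at read 1025, 791 and 979 on the contused arrays and 898, 820 and 747 on the uninjured arrays, so that contused array 2 lay inside the uninjured range. Its log2 change was 0.18 (95% interval -0.14 to 0.49, adjusted p = 0.45). D90048exon_g_at read 648, 783 and 679 after contusion against 800, 675 and 623, a log2 change of 0.0105 (-0.3 to 0.32, adjusted p = 0.97). For D90048exon_at the readings were 309, 366 and 353 against 501, 332 and 330, with uninjured array 1 standing above all others and a log2 change of -0.15 (-0.55 to 0.25, adjusted p = 0.627). None of the 3 passed with any single array left out. The intervals leave room for a change of either sign. For the brightest probe set of Atp1b1 the interval ran from -0.74 to -0.23. It meets those of D90048exon_g_at and D90048exon_at but not that of J04629_at.

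The ratio of the beta subunits was compared within arrays. The log2 difference of Atp1b1 minus Atp1b2 within an array, each at its brightest probe set, was 1.04, 1.32 and 1.26 on contused arrays and 1.63, 1.82 and 2.15 on uninjured arrays. These values show a shift between the groups and not which gene is more abundant, since signals of different probe sets are not on 1 scale. The groups did not overlap, and the shift was -0.66 (SE 0.17, exact permutation p = 0.1, two-sided, the smallest that 3 against 3 arrays allow, and 0.15 after Benjamini-Hochberg adjustment over 15 pairs).

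**Figure D2:**
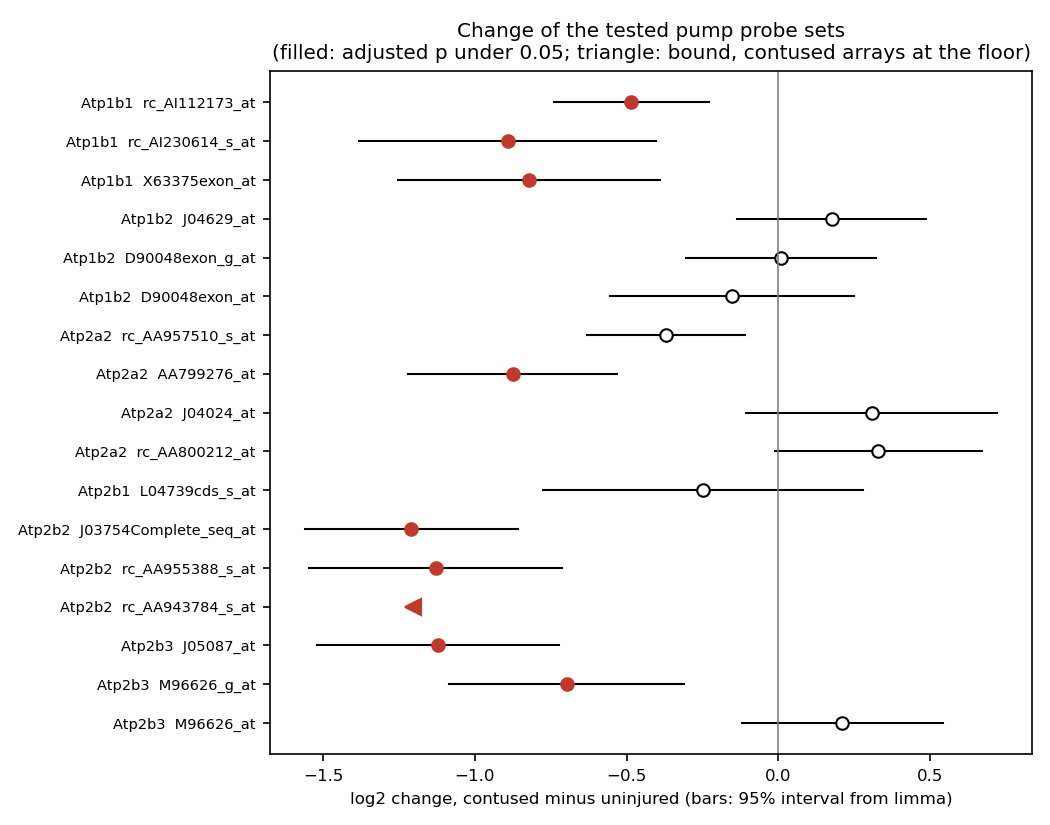
Log2 change, contused minus uninjured, of the 17 tested probe sets with 95% intervals from limma on the horizontal axis, grouped by gene on the vertical axis; filled symbols passed an adjusted p of 0.05, and the triangle is a bound, with no interval, for rc_AA943784_s_at, whose contused arrays were all at the floor. Atp2b2 lies at -1.21 and -1.13 by its other tested probe sets, while the 4 of Atp2a2 run from -0.88 to 0.33.

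Atp2a2 encodes SERCA2, the calcium pump of the endoplasmic reticulum in most cells, and its probe sets did not move together. AA799276_at read 420, 465 and 476 on the contused arrays and 670, 948 and 902 on the uninjured arrays, a log2 change of -0.88 (SE 0.16, adjusted p = 0.00338). The groups were well apart, and this call held with each array left out in turn (adjusted p at most 0.0205). The brightest, rc_AA957510_s_at, read 844, 822 and 843 against 984, 1141 and 1124. Its groups did not overlap either, with the contused arrays within an SD of 12.6, but its log2 change of -0.37 (SE 0.12) stayed outside the threshold (adjusted p = 0.0551). It passed with the floor raised to the pooled 50th percentile (0.0471) and with dim probe sets kept (0.0432).

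The other Atp2a2 probe sets pointed the opposite way without passing. J04024_at read 137, 163 and 151 after contusion and 91.5, 146 and 133 in uninjured cord, with overlap, and its log2 change was 0.31 (95% interval -0.11 to 0.72, adjusted p = 0.306). For rc_AA800212_at the readings were 162, 126 and 128 against 110, 99.5 and 120, all contused arrays being the higher, with a log2 change of 0.33 (-0.0104 to 0.67, adjusted p = 0.178). Their intervals do not meet that of AA799276_at, which ends at -0.53. No source used here says which SERCA2 splice form each probe set reads.

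Atp2b1 encodes PMCA1, the plasma membrane calcium pump of most cells, and was close to the floor. L04739cds_s_at read 79.1, 84.1 and 91.5 on contused arrays and 64.9, 141 and 112 on uninjured arrays. The uninjured values spanned the contused ones, and the log2 change was -0.25 (95% interval -0.77 to 0.28, adjusted p = 0.544). Uninjured array 1 decided this value: without it the log2 change was -0.56 and passed (adjusted p = 0.0461), and without uninjured array 2 it was -0.0051. The other Atp2b1 probe sets were not tested, rc_AI103671_at with 46.2 to 52.8 against 41.9 to 65.5 and rc_AI172499_at with 40.9 to 52.1 against 32.5 to 38. Only 1 of these 12 readings lay above the floor, so they give no level for PMCA1.

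Atp2b2 encodes PMCA2, a fast calcium extruder of neurons and of the sensory hair cells of the ear. J03754Complete_seq_at read 189, 160 and 173 on the contused arrays and 336, 463 and 415 on the uninjured arrays (mean 174 ± 14.4 against 405 ± 63.8). Even the lowest uninjured array stood well above the highest contused one, and the log2 change was -1.21 (SE 0.16, adjusted p = 0.000573). Probe set rc_AA955388_s_at read 161, 139 and 164 against 256, 410 and 366, a log2 change of -1.13 (SE 0.19, adjusted p = 0.00235). Uninjured array 1 was again the lowest of its group. For rc_AA943784_s_at all contused arrays, at 43.6, 31.5 and 58.7, were below the floor and the uninjured arrays read 114, 168 and 149, so that the signal was at least 2.3-fold lower after contusion, a bound from the uninjured mean log2 value against the floor (adjusted p = 0.000507). The floor gave its contused arrays the same value, so this adjusted p takes no spread from them. With no floor the log2 change of rc_AA943784_s_at was -1.71. The last, L05557cds_g_at, was below the floor throughout (25.1 to 27.5 against 36.7 to 43.5) and was not tested.

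The calls of the brighter Atp2b2 probe sets held with arrays left out. J03754Complete_seq_at and rc_AA955388_s_at passed with each of the 6 arrays left out (adjusted p at most 0.00397 and 0.0126), and log2 changes then ran from -1.34 to -1.11 and from -1.33 to -0.99. With an uninjured array left out, rc_AA943784_s_at no longer met the filter of 3 arrays above the floor.

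Atp2b3 encodes PMCA3, a calcium pump found mostly in brain. J05087_at read 106, 88.9 and 121 on contused arrays and 185, 248 and 258 on uninjured arrays, a log2 change of -1.12 (SE 0.18, adjusted p = 0.00189) that held with each array left out (adjusted p at most 0.0113). The groups did not overlap. M96626_g_at read 114, 112 and 87.4 against 138, 188 and 185, a log2 change of -0.7 (SE 0.18, adjusted p = 0.0197). Its call was lost without contused array 3 (adjusted p = 0.0541), without uninjured array 2 (0.0715) or 3 (0.0828), and with dim probe sets kept (0.106). M96626_at, built on the same transcript record, read 96.3, 83.7 and 74.2 against 66.1, 66.7 and 87.1. Its groups overlapped near the floor, the log2 change was 0.21 (95% interval -0.12 to 0.54, adjusted p = 0.383), and that interval does not meet the one of M96626_g_at, which ends at -0.31.

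The probe sets that passed in the Atp2b family were those of Atp2b2 and Atp2b3, with that of Atp2b1 passing when uninjured array 1 was left out, and the difference from Atp2b1 was measured within arrays. Atp2b1 minus Atp2b2 shifted by 0.96 on the log2 scale (SE 0.23), with within-array values of -1.26 to -0.92 on contused and -2.37 to -1.72 on uninjured arrays, and Atp2b1 minus Atp2b3 by 0.88 (SE 0.23). In neither did the groups overlap. Atp2b2 minus Atp2b3, by contrast, gave 0.51 to 0.85 on contused and 0.69 to 0.9 on uninjured arrays, which overlap, and a shift of -0.088 (SE 0.13). Over all 15 pairs of the 6 genes, 10 had no overlap between groups, each at an exact permutation p of 0.1 and an adjusted p of 0.15, so no pair could pass 0.05 in this design. The pairs share genes and so are not independent, and the share without overlap among other pairs of genes was not computed. The widest shift was that of Atp1b2 minus Atp2b2, at 1.39 (SE 0.2). With all tested probe sets of a gene averaged, several shifts moved, and that of Atp1b1 minus Atp2b3 was -0.197 in place of 0.64.

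**Figure D3:**
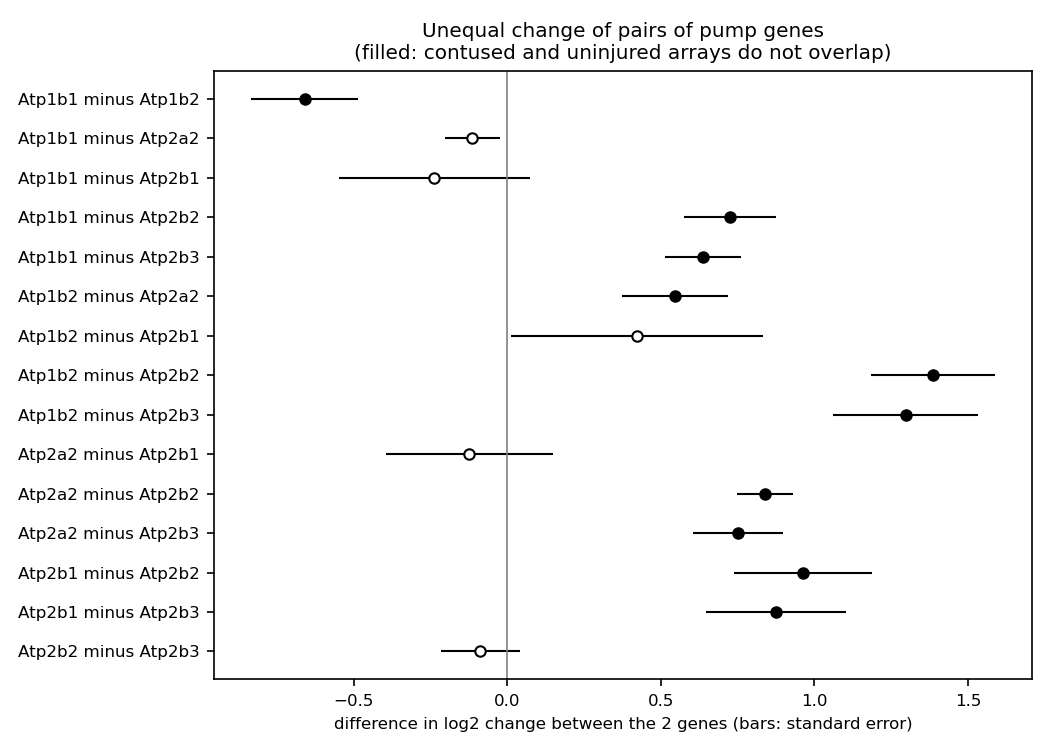
Difference in log2 change between the genes of each of 15 pairs (horizontal axis) with the standard error over 3 arrays a group. Filled points are the 10 pairs whose within-array values do not overlap between contused and uninjured arrays. Pairs that set Atp2b2 or Atp2b3 against any gene but each other lie farthest right, up to 1.39.

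Promoters of Atp2b2 and Atp2a2, which had probe sets that were lower, are set beside that of Atp1b2, which did not pass. RefSeq on GRCr8 gave a window of 300 bases, 250 before and 50 after the start, for 4 of the 6 genes; Atp1b1 and Atp2b3 are named only. The windows, each 5' to 3' on the strand of the gene, are chr4:148763604-148763903 (minus strand) for Atp2b2, chr12:39733269-39733568 (plus strand) for Atp2a2 and chr10:54823659-54823958 (minus strand) for Atp1b2. Capitals mark the GC box GGGCGG, the CCAAT box CCAAT and the TATA box TATAAA, each searched on both strands.
Atp2b2: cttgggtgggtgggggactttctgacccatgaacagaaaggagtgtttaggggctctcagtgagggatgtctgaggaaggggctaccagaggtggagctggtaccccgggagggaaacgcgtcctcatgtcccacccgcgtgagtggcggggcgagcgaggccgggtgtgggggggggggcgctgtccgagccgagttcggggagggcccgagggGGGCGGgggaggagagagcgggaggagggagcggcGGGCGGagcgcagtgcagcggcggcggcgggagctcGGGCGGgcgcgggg
Atp2a2: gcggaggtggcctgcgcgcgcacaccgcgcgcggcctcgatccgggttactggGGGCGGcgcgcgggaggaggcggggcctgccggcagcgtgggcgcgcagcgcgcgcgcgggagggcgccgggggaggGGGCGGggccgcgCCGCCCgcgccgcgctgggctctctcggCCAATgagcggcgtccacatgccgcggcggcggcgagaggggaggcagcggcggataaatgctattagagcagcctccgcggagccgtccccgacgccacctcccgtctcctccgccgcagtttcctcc
Atp1b2: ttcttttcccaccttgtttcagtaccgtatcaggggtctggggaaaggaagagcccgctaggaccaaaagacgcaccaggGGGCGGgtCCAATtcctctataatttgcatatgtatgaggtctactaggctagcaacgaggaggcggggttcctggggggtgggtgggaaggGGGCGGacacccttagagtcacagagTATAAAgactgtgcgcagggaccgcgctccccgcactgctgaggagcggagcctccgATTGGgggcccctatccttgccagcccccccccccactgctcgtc
Atp2b2 held 3 GC boxes and neither of the other motifs, Atp2a2 held 3 GC boxes and 1 CCAAT box, and Atp1b2 held 2 GC boxes, 2 CCAAT boxes and 1 TATA box. In Atp2b1, not printed, 3 GC boxes were found. Of all 33469 windows of this length, 33.1% held a GC box, 37.5% a CCAAT box and 14.2% a TATA box. The share of G and C was 72.3% for Atp2b2, 79% for Atp2a2, 74.3% for Atp2b1 and 60.3% for Atp1b2, against a median of 51.7%. These matches describe the letters in the windows, and no match says only that the letters are not there.

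No other part of the sodium-potassium pump passed as lower. Of 5 tested genes on a list of further subunits and small FXYD regulators, 0 were lower and 1 higher, with a median log2 change of 0.26 against -0.017 over all 3955 genes. The riser was Fxyd2, the gamma subunit that tunes the pump in kidney, at 221, 292 and 320 after contusion and 206, 138 and 63.9 in uninjured cord (log2 change 1.17, SE 0.35, adjusted p = 0.0432). The uninjured readings were spread over a wide range, and the call held in 1 of 6 fits with an array left out (adjusted p up to 0.101) and not with dim probe sets kept. Atp1b3, the beta-3 subunit, read 959 to 1429 on contused and 1254 to 1422 on uninjured arrays (log2 change -0.16, adjusted p = 0.539). Catalytic alpha subunits other than Atp1a4 (log2 change 0.26, adjusted p = 0.422) are not analysed here.

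Related pumps were without a call: 0 lower and 0 higher of 8 tested genes in limma (1 and 0 before adjustment), with a median log2 change of -0.025. The brightest were Atp2a3, the SERCA3 gene, at 236 ± 45.7 against 208 ± 20 (SD, n = 3 each), and Atp2c1, the calcium and manganese pump of the Golgi, at 223 ± 7.93 against 209 ± 4.18. Atp2b4, the remaining PMCA gene, read 94 to 119 against 96.1 to 132 (log2 change -0.065, adjusted p = 0.83).

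Among sodium-calcium exchangers and pump regulators, 2 of 5 tested genes were lower and 0 higher in limma (3 and 1 before adjustment). The median log2 change was -0.46, the value of Calm2. Of the exchangers, Slc8a2 (log2 change 0.48, adjusted p = 0.1) and Slc8a1 at its brightest probe set (0.27, adjusted p = 0.279) pointed higher without passing. Other tested Slc8a1 probe sets ran from -0.18 to 0.42. Slc24a2, a potassium-dependent sodium-calcium exchanger of neurons, read 52.6, 55.2 and 99.3 after contusion and 101, 119 and 146 in uninjured cord (log2 change -0.74, SE 0.21, adjusted p = 0.0314), and another probe set of it did not pass (adjusted p = 0.542). Slc8a3, the NCX3 exchanger, read 74, 60 and 75.3 against 95.4, 97.4 and 112 (log2 change -0.54, SE 0.13, adjusted p = 0.0186). The call of Slc24a2 held in 2 and that of Slc8a3 in 4 of 6 fits with an array left out. Neither was called with dim probe sets kept. With the floor raised to the pooled 50th percentile neither met the filter, so neither was tested. Calm2, a gene for calmodulin, the activator of PMCA pumps, read 1209, 941 and 1600 against 1732, 1565 and 1755 (log2 change -0.46, adjusted p = 0.101). Pln, the SERCA inhibitor phospholamban, was at the floor on all arrays. In the list of store release channels and calcium-binding proteins of the endoplasmic reticulum, 0 of 11 tested genes were lower and 0 higher in limma (1 and 1 before adjustment), and the median log2 change was -0.02. Calr (calreticulin) read 1769, 1928 and 1669 against 1527, 1742 and 1774, with overlap, and the chaperone gene Hsp90b1 read 1354, 1529 and 988 against 887, 985 and 1039 (log2 change 0.39, adjusted p = 0.138).

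Markers of cell types moved in the same samples. All 8 tested neuron markers were lower (median log2 change -1.01, brightest Nefl at 1764 ± 79.4 against 3292 ± 247 and Nefm at 1500 ± 83.5 against 2693 ± 260), and 8 of 9 microglia and macrophage markers were higher (median 1.36, brightest Ctss at 3302 ± 55.5 against 1958 ± 87 and Lyz2 at 2288 ± 88 against 702 ± 226). Summed signals of the microglia and macrophage list were 10454 to 10802 on contused arrays and 3471 to 4377 on uninjured arrays. Of astrocyte markers 1 of 7 was higher and 0 lower (median 0.087), with Aldoc and S100b the brightest (log2 changes -0.11 and -0.063). Among oligodendrocyte markers 2 of 5 fell and 0 rose (median -0.12), with Mbp and Cnp the brightest (0.0038 and -0.12). The meninges and fibroblast list had 4 of 7 higher and 0 lower (median 0.86), with Ptgds and Igf2 the brightest (0.47 and 0.51), and summed to 11041 to 13249 against 5216 to 9211.

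No endothelial, muscle or Schwann cell marker passed: 0 of 4, 0 of 6 and 0 of 3 tested genes in limma, with 0, 0 and 2 (higher) at a p of 0.05 before adjustment. The lists summed to 775 to 817 against 841 to 850 for endothelium (brightest Slco1a4 and Flt1), 668 to 799 against 704 to 881 for muscle (brightest Myog and Tnnt3) and 2502 to 3021 against 1945 to 2356 for Schwann cells (brightest Pmp22 and Prx). The part of cell composition in the pump changes was not tested. Set beside the neuron median of -1.01, the brightest probe sets of Atp2b2 (-1.21) and Atp2b3 (-1.12) had changes of similar size. That of Atp1b1 (-0.48) had a smaller one, but the other probe sets of Atp1b1 changed by -0.89 and -0.82. Those of Atp2b3 changed by -0.7 and 0.21. The brightest probe set of Atp1b2 changed by 0.18, with a limma interval of -0.14 to 0.49. That interval held the medians of the astrocyte (0.087), endothelium (-0.045), muscle (-0.017), oligodendrocyte (-0.12) and Schwann cell (0.4) lists. These medians come without a spread, and which cells the Atp1b2 signal came from was not tested.

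**Figure D4:**
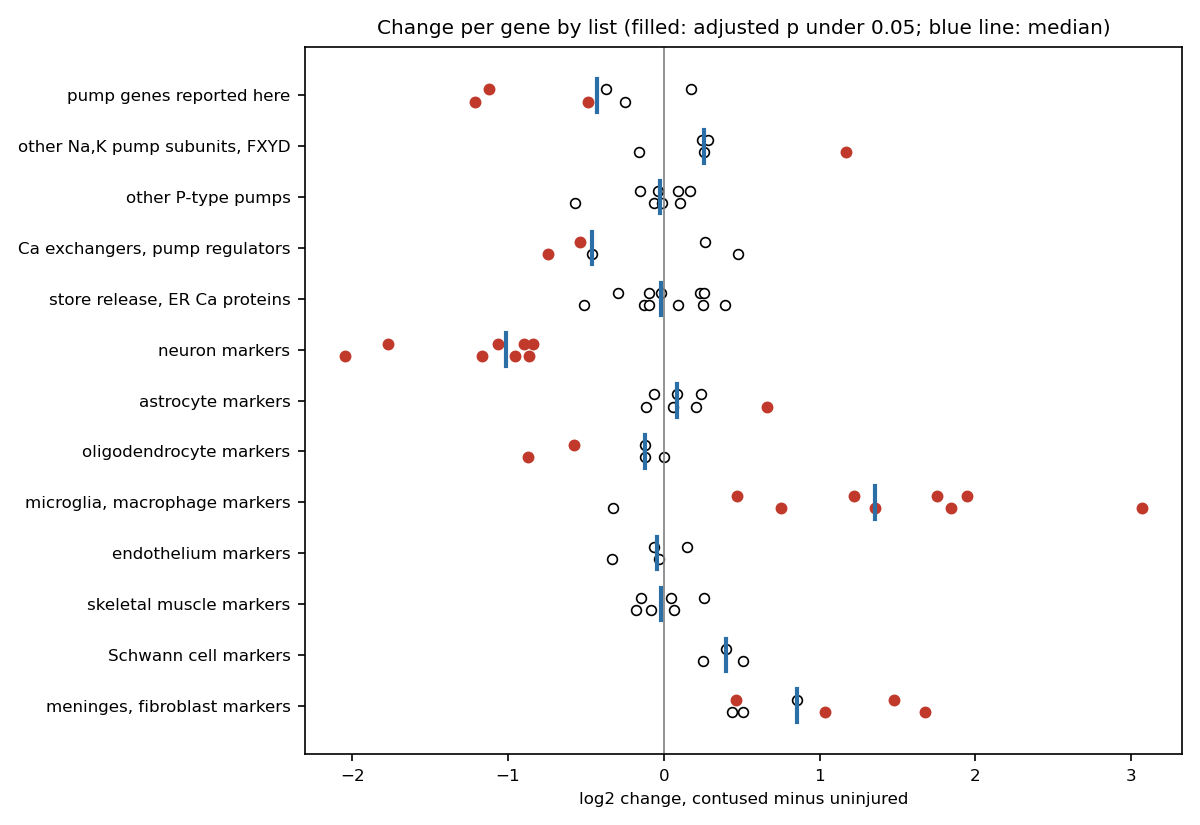
Log2 change per gene at its brightest tested probe set (horizontal axis), by list, with the 6 pump genes on top. Filled points passed an adjusted p of 0.05 and the blue line is the list's median. The fallen pump genes lie left of 0, as do the neuron markers, whose median is -1.01. The further pump lists centre near 0 with 2 exceptions. The joint list of exchangers and pump regulators has a median of -0.46, which is the value of Calm2. The list of other sodium-potassium pump subunits and FXYD regulators has a median of 0.26, which is the value of Atp1a4.

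Most pump probe sets that were lower also shared a pattern among the uninjured arrays. In 8 of the 9 probe sets that were lower after contusion, uninjured array 1 was the lowest of its group, the exception being rc_AI230614_s_at, where it was array 2. The same array was lowest for 7 of 8 neuron markers, for 63.6% of all 643 probe sets called lower and for 41.7% of all tested. Pump probe sets without a call were mixed: uninjured array 1 was the highest for each of Atp1b2 and the lowest for L04739cds_s_at of Atp2b1. Across the 6 arrays, the genes with the most similar profile among 4811 singly named probe sets above the floor on every array were Chn1 and Bex3 for Atp2b2 (Pearson r = 0.998 and 0.997), Mark1 and Pgam1 for Atp2b3 (0.996 and 0.995), and Atp2b2 and Tnk2 for Atp2a2 at rc_AA957510_s_at (0.997 and 0.996). For Atp1b1 they were Esr2 and Myh1 (0.988 and 0.985), for Atp1b2 Atp4b and Ggh (0.962 and 0.96) and for Atp2b1 Rpap2 and Cdc37 (0.968 and 0.965). With 6 arrays in 2 groups, any gene that differs between the groups reaches a high value, so these correlations are descriptions of these arrays only.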

How the data were processed

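Total RNA of 6 samples was measured on 1-colour oligonucleotide arrays. The deposited table holds 1 linear intensity per probe set and array, read as such from the values; background correction, summary and scaling by the authors are not given in the sources used here. Trimmed means (2% off each end) differed by 9.03%, under the limit of 10%, so values were used as deposited. Of 8799 probe sets 59 controls were left out. Of the rest, 7006 carry 1 gene, and 6985 of these took their symbol by gene identifier from GRCr8, whether or not it changed. GRCr8 was used for names and promoter windows only. Values below the pooled 25th percentile (signal 61.6) were raised to it and log2 transformed, which understates changes of dim probe sets. Tested were probe sets above the floor on 3 or more arrays. Contused and uninjured groups came from the titles. Tests used limma 3.58.1 in R 4.3.3 (lmFit, eBayes with an intensity trend), two-sided, with Benjamini-Hochberg adjustment over 6705 probe sets, a threshold of 0.05 and 4 residual degrees of freedom, and were tested on simulated data. Pairs of genes were compared by exact permutation in scipy 1.17.1. Each gene stands by its brightest tested probe set. The number of arrays limits the precision. All members' probe sets are named. Also named are up to 3 genes per direction of each pump list past the threshold (the 2 brightest where none passed). The 2 brightest of each marker list and the 2 most similar profiles per member are named as well. Atp1a4, Atp1b3, Atp2b4, Calm2, Pln, Slc8a1 and Slc8a2, and Syt1 and the changes beside list names, were added after their values were seen. Members and lists were chosen with earlier results of these data known. Replicates were not treated as paired. Alternatives varied scaling, floor, filter, trend, replicate block and each array left out.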

Additional observations from a re-analysis of the deposited data

How the results depend on the processing

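The direction of the log2 change of all 17 tested pump probe sets was kept under each alternative in which it was tested, except for Atp1b2: D90048exon_g_at ran from -0.0696 to 0.11 and D90048exon_at from -0.25 to 0.0468 with 1 array left out, none past the threshold. The count of pump probe sets lower was 9 under quantile normalization, a common trimmed mean, the floor raised to the pooled 50th percentile, no floor and no intensity trend, 6 with dim probe sets kept in the fit, and 4 to 9 with 1 array left out (4 without uninjured array 3, where the filter also removed 1 of Atp2b2). These counts were not of the same probe sets throughout. With dim probe sets kept, all those of Atp1b1 and M96626_g_at of Atp2b3 were lost and rc_AA957510_s_at of Atp2a2 was gained. With the floor raised, rc_AA957510_s_at was gained and rc_AA943784_s_at of Atp2b2 was not tested. Without uninjured array 1, L04739cds_s_at of Atp2b1 passed and rc_AA943784_s_at was not tested. Pump genes lower numbered 2 to 4, and 0 pump probe sets were higher under any alternative. Over all probe sets, 396 were lower and 266 higher with dim probe sets kept, and 371 to 782 lower and 285 to 457 higher with 1 array left out. The fit with the replicate number as a block also gave 9 pump probe sets and 3 pump genes lower; it moved 3 list counts, to 3 exchangers and regulators lower, 5 meninges genes higher and 1 Schwann cell gene higher. Deviations of same-numbered arrays from their group means correlated at 0.042, 0.22 and -0.24, so the numbers were not taken as pairs, and contused array 1 correlated best with uninjured array 3.

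With dim probe sets kept, 0 calcium exchangers and regulators were lower and 0 FXYD list, astrocyte and meninges genes higher. Exchangers and regulators lower were also 0 with the floor raised to the pooled 50th percentile, where Slc24a2 and Slc8a3 were not tested. Schwann cell genes higher were 2 under quantile normalization and 1 with a common trimmed mean, the higher floor or no floor, and 1 gene of the store release list was higher under quantile normalization. With 1 array left out, exchangers and regulators lower ran from 0 to 3, store release genes lower from 0 to 2 and higher from 0 to 1, related pumps lower from 0 to 1, FXYD list, astrocyte and Schwann cell genes higher from 0 to 1, and meninges genes higher from 2 to 4.

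The shift of Atp1b1 minus Atp2a2 was -0.23 under quantile normalization. With the floor raised to the pooled 50th percentile, shifts were 0.38 for Atp1b1 minus Atp2b3, 0.49 for Atp2a2 minus Atp2b3 and -0.35 for Atp2b2 minus Atp2b3, dim values having been raised further. With all tested probe sets of a gene averaged, they were -0.58 for Atp1b1 minus Atp2a2, 0.45 for Atp1b1 minus Atp2b2, -0.197 for Atp1b1 minus Atp2b3, 0.16 for Atp1b2 minus Atp2a2, 0.55 for Atp1b2 minus Atp2b3, 1.03 for Atp2a2 minus Atp2b2, 0.38 for Atp2a2 minus Atp2b3, 0.29 for Atp2b1 minus Atp2b3 and -0.65 for Atp2b2 minus Atp2b3. The averages for Atp2b3 and Atp2a2 include probe sets whose changes had opposite signs. For other changes of value the cause was not tested. Signals near the floor limit what can be said of Atp2b1 and Atp2b3.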
